A study of Homo sapiens with 18 samples.

Results

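TEAD factors are DNA-binding proteins that depend on YAP1 and TAZ, the co-activators restrained by the Hippo kinases, to switch on genes of growth and matrix remodelling. In the epidermis, basal keratinocytes divide, attach to the basement membrane and hold active YAP1, and cells that leave the basal layer stop dividing and build the cornified envelope, a crosslinked protein shell under a lipid seal. The comparison described here set keratinocytes that had expressed TEADi for 48 h against keratinocytes that had expressed a fluorescent protein for the same time. It addressed which transcripts differed once TEAD activity had been blocked.

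The 6 libraries were those labelled 48 h, out of 18 in the series. Both groups were N/TERT2G cells, an immortalised line of human keratinocytes, harvested 48 h after adenoviral transduction at a multiplicity of infection of 25. Ad-TEADi (n = 3) carried TEADi, a green fluorescent protein joined to the TEAD-binding stretches of YAP1, TAZ and VGLL4, which keeps YAP1 and TAZ off TEAD. Ad-GFP (n = 3) carried green fluorescent protein alone, so both groups received virus and fluorescent protein. The other 12 libraries, from 12 and 24 h, entered the estimate of the spread, and those of 24 h entered the comparison of times. All cells came from 1 line, and the labels do not say whether the triplicates were separate cultures. The p-values thus rest on the spread between libraries, which may be technical. The depth recovered from the deposited values was 16616673 to 20934569 reads in Ad-TEADi and 18643386 to 21617776 reads in Ad-GFP at 48 h, and 14159518 to 26717930 reads over the series.

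Levels are given as TMM-normalised CPM, read counts scaled so that libraries of different depth can be set side by side. The log2 change is that of Ad-TEADi over Ad-GFP after 1 was added to each value, with its SE from limma, and it understates the change of genes with low levels. Every change given after "by" or "at" is on this log2 scale, and every level is in CPM. The words rose and fell are kept for genes with an adjusted p under 0.05 (limma, Benjamini-Hochberg over the 13050 tested genes) that also moved at least 1.5-fold. In bulk RNA, fewer cells of a type and less RNA per cell cannot be told apart.

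At 48 h, 823 genes rose and 827 fell of the 13050 tested, which are 6.31% and 6.34%. A further 5026 genes passed the adjusted p at smaller folds. The values of the 3 Ad-TEADi and 3 Ad-GFP libraries did not overlap for 1645 of the 1650 called genes, and they did not overlap for 59.0% of all tested genes. The rises were the larger: 306 genes rose and 190 fell at least 2-fold, and among genes of certain copies 56 rose and 4 fell at least 4-fold, the 4 being CTGF, ADAMTS1, ALPL and GJA5. The risen genes started lower, with a median Ad-GFP level of 6.51 CPM in the risen genes, 20.5 CPM in the fallen genes and 22.1 CPM over all tested genes. Of the risen genes, 166 averaged under 1 CPM in Ad-GFP, and 123 entered the test only through the 48 h Ad-TEADi libraries, so counts of risen members in the lists below describe tested members only. Lists for which no such number is given can hold such genes too. Each count of risen or fallen list members is to be read beside the shares of 6.31% and 6.34%. When genes had to average at least 10 CPM, 379 rose and 596 fell.

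**Figure D1:**
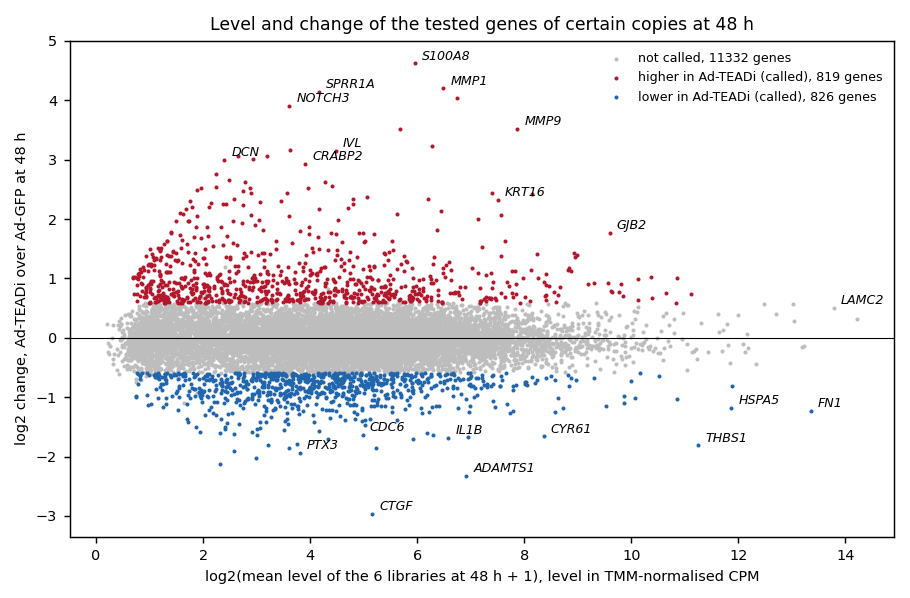
Each point is a tested gene of certain copies at 48 h, with the log2 mean level of the 6 libraries (CPM plus 1) on the x axis and the log2 change of Ad-TEADi over Ad-GFP on the y axis. The 819 risen genes (red) reach 4.62 at S100A8 and the 826 fallen genes (blue) reach -2.97 at CTGF, with most genes (grey) between the fold limits.

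Among the best known targets of YAP1, TAZ and TEAD, falls outnumbered rises. Of 23 tested targets 8 fell and 1 rose, with a median log2 change of -0.42 beside -0.03 over all tested genes. CTGF (chromosome 6 from 132269316 to 132272514 in hg19), a secreted matricellular protein, had levels of 7.47, 6.98 and 6.73 CPM in Ad-TEADi, against 58.0, 60.2 and 68.2 CPM in Ad-GFP (log2 change -2.97 ± 0.15, adjusted p = 1.2e-09). Its relative CYR61 measured 161, 163 and 149 CPM in Ad-TEADi, against 482, 501 and 514 CPM in Ad-GFP (log2 change -1.66 ± 0.08, adjusted p = 1.2e-10). AXL, a receptor tyrosine kinase, stood at 110.4, 107 and 104 CPM in Ad-TEADi, against 244, 243 and 237 CPM in Ad-GFP (log2 change -1.16 ± 0.05, adjusted p = 3.8e-18). The Ad-TEADi libraries were below every Ad-GFP library for all 3 genes, and CTGF had the largest called fall. AMOTL2, an angiomotin that holds YAP1 at junctions, fell by 1.15 on the log2 scale. The GTPase-activating protein DLC1 (-1.36), the ligand TGFB2 (-0.83), the activin antagonist FST (-0.78) and the coagulation initiator F3 (-0.65) also fell. The member that rose was IGFBP3, a binding protein of insulin-like growth factors, at low levels of 2.83, 1.99 and 2.39 CPM in Ad-TEADi, against 1.11, 0.649 and 1.33 CPM in Ad-GFP. Of the other 14 tested targets, 9 were lower at an adjusted p under 0.05 but by less than 1.5-fold, ARHGEF17 and CCDC80 with log2 changes of -0.55 and -0.56 among them. ANKRD1, a widely used target, was not tested because its levels in the 48 h libraries did not exceed 0.216 CPM.

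The promoters of CTGF, THBS1 and AMOTL2 are shown because their transcripts fell and because the letters GGAATG, the core that TEAD factors bind (CATTCC on the other strand), stand close to their starts. THBS1 encodes thrombospondin 1, and AMOTL2 is shown at the second of its RefSeq starts. The sequences are from RefSeq in GRCh38.p14, on the strand of the gene, end at the base before the start and carry those letters in capitals.
CTGF: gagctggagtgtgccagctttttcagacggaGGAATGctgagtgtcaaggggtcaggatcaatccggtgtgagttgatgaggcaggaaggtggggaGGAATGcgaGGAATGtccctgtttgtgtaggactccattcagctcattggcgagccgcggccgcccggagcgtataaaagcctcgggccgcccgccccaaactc
THBS1: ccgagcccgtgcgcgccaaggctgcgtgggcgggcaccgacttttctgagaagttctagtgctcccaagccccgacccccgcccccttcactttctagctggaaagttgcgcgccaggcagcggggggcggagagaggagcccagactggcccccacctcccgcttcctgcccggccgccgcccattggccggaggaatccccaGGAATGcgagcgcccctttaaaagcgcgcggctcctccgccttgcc
AMOTL2: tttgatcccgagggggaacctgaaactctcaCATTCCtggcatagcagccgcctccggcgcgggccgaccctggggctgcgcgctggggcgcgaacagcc
They span chr6:131951373-131951572 (minus strand), chr15:39580829-39581078 (plus strand) and chr3:134374448-134374547 (minus strand). The CTGF stretch holds the letters 3 times, beginning 169, 104 and 95 bases before the start, THBS1 once at 46 bases and AMOTL2 once at 69 bases. On either strand, GGAATG occurs in 4928 of 35116 RefSeq promoter windows that run from 250 bases before to 50 after a start (14%), so a match is a description and not a bound site. The letters were in 128 of 953 windows of fallen genes (13.4%), 109 of 941 of risen genes (11.6%) and 1637 of 14343 of tested genes (11.4%). The promoters of the risen genes SPRR1A and SPRR1B, printed below, hold GGAATG too, left there in lower case. CYR61 was not matched.

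Most transcripts of the TEAD factors and their cofactors stayed within the fold limit. Of 9 tested TEAD, YAP, TAZ and VGLL genes none rose, and TEAD4 and the cofactor VGLL1 fell, TEAD4 with log2 change -0.64 ± 0.08, adjusted p = 1.5e-08. Over all tested genes 6.34% fell. Of the 9 genes 8 passed the adjusted p, 5 of them higher and 3 lower, with a list median of 0.39. TEAD2, TEAD3, WWTR1 (which encodes TAZ) and VGLL3 had log2 changes of 0.53, 0.40, 0.39 and 0.48. VGLL1 measured 0.773, 0.796 and 0.890 CPM in Ad-TEADi, against 3.59, 3.98 and 3.56 CPM in Ad-GFP (log2 change -1.37 ± 0.14, adjusted p = 3.5e-10). VGLL4 measured 69.8, 63.9 and 64.3 CPM in Ad-TEADi, against 45.9, 48.1 and 42.6 CPM in Ad-GFP, a log2 change of 0.53 that missed the fold limit. The insert of TEADi encodes parts of VGLL4, YAP1 and TAZ, and whether reads from it were counted in these genes was not tested. Among 18 Hippo kinases and adaptors AMOTL2 fell and the kinase MAP4K4 rose by 0.60, close to the fold limit, with 0.58 when Ad-GFP replicate 3 or Ad-TEADi replicate 3 was left out, which was below it.

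Genes of the cornified envelope were largely raised. Of 16 tested members 11 rose and none fell, with a median log2 change of 1.62. SPRR1A, a small proline-rich precursor of the envelope, had levels of 32.6, 31.0 and 35.3 CPM in Ad-TEADi, against 1.01, 0.994 and 0.760 CPM in Ad-GFP (log2 change 4.14 ± 0.17, adjusted p = 3.6e-20). SPRR1B stood at 146, 129 and 144 CPM in Ad-TEADi, against 12.5, 15.1 and 14.4 CPM in Ad-GFP (log2 change 3.23 ± 0.16, adjusted p = 1.9e-11). Involucrin (IVL), a scaffold of the early envelope, measured 38.1, 37.8 and 41.1 CPM in Ad-TEADi, against 2.93, 3.50 and 4.18 CPM in Ad-GFP (log2 change 3.15 ± 0.13, adjusted p = 1.1e-19). In each case the lowest Ad-TEADi library was several-fold above the highest Ad-GFP library. TGM1, the transglutaminase that crosslinks the envelope, rose with log2 change 1.86 ± 0.13, adjusted p = 3.3e-14, at 25.7, 21.7 and 24.2 CPM in Ad-TEADi, against 5.86, 6.27 and 5.34 CPM in Ad-GFP. The secreted protein SBSN rose by 3.005, CNFN by 2.26, SPRR2A by 1.62, LCE3D by 1.63, KRTDAP by 1.48 and SPRR2E by 1.01. Of the 11 risen members, 5 entered the test only through the 48 h Ad-TEADi libraries, PRR9 with 3.97, 3.18 and 4.23 CPM in Ad-TEADi, against 0.101, 0.0865 and 0.133 CPM in Ad-GFP among them. The plakin EVPL and the secreted protein DMKN were tested and not called, at 0.41 and -0.43. Further members were listed and too low to test: TGM3 measured 0.927, 1.41 and 1.22 CPM in Ad-TEADi, against 0.0506, 0.0432 and 0.0445 CPM in Ad-GFP, and SPRR3 measured 0.670, 1.15 and 1.06 CPM in Ad-TEADi, against 0.0506, 0.0865 and 0.0445 CPM in Ad-GFP. The listed keratin KRT1, a marker of the spinous layer, was also below the filter, at 0.979, 0.928 and 1.001 CPM in Ad-TEADi, against 0.0506, 0.0432 and 0.133 CPM in Ad-GFP.

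Promoters of the SPRR1 genes and IVL are shown because these genes had among the largest rises. AP-1 factors are known to act on such envelope genes, and the letters TGAGTCA, which AP-1 binds and which read TGACTCA on the other strand, are in capitals. The sequences are from RefSeq in GRCh38.p14 and end at the base before the start.
SPRR1A: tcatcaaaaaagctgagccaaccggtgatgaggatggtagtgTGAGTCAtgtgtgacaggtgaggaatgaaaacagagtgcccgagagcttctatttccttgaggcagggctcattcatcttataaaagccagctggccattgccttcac
SPRR1B: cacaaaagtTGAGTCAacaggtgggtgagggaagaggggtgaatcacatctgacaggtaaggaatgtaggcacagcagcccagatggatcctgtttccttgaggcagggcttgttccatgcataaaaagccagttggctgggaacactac
IVL: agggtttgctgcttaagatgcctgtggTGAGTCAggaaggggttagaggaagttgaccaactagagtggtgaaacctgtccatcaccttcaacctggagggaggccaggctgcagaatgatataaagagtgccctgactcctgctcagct
They lie on the plus strand at chr1:152983931-152984080, chr1:153031053-153031202 and chr1:152908396-152908545, and the match begins 108, 141 and 123 bases before the start. Of all RefSeq windows, 1738 of 35116 (4.95%) hold these letters, as do 533 of 14343 windows matched to tested genes (3.72%). For the list as a whole only 10 of 16 tested members matched a window, too few for a share. The AP-1 genes themselves went in different directions. FOS rose, at 26.5, 25.4 and 26.4 CPM in Ad-TEADi, against 10.5, 10.98 and 11.1 CPM in Ad-GFP (log2 change 1.19 ± 0.12, adjusted p = 1.3e-10), FOSL1 fell with log2 change -0.76 ± 0.08, adjusted p = 1.6e-07, and the other 9 tested AP-1 genes were not called, JUN with 0.57 and FOSL2 with 0.51 among them. JUN lay just under the fold limit and was called when each library was centred on its median (0.63), on TPM values (0.61), with voom weights (0.59), without Ad-GFP replicate 1 (0.61) and without Ad-TEADi replicate 2 (0.59).

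**Figure D2:**
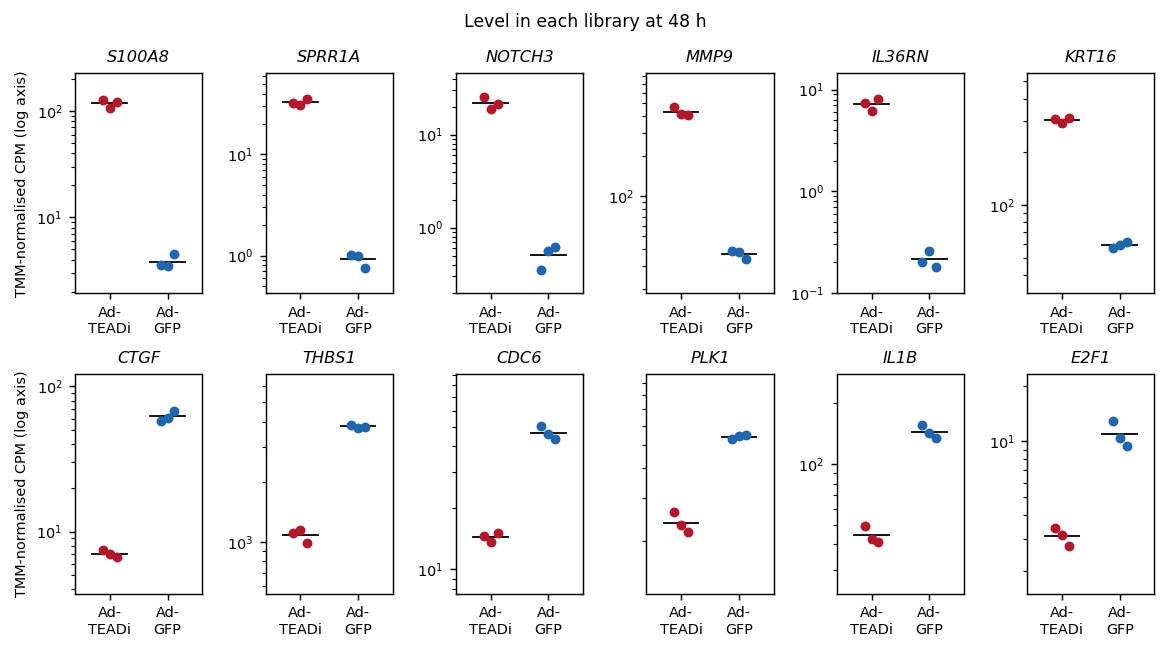
Level in each library at 48 h (CPM, log axis) for 12 genes, with Ad-TEADi in red left of Ad-GFP in blue and a bar at each group mean. In every panel the groups do not overlap, with 3 Ad-TEADi points above all Ad-GFP points in the upper row and below them in the lower row. Groups did not overlap for 59.0% of all tested genes.

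S100 genes encode small calcium-binding proteins, several of them released by stressed or differentiating keratinocytes. Of 13 tested members 5 rose and none fell, and the median log2 change was 0.36. S100A8, a subunit of calprotectin, measured 126, 107 and 121 CPM in Ad-TEADi, against 3.54, 3.46 and 4.49 CPM in Ad-GFP (log2 change 4.62 ± 0.17, adjusted p = 1.1e-16), the largest rise among genes of certain copies. Its partner S100A9 measured 214, 185 and 203 CPM in Ad-TEADi, against 10.2, 11.9 and 11.6 CPM in Ad-GFP (log2 change 4.04 ± 0.19, adjusted p = 2.6e-10). S100A4, S100A6 and S100A12 rose by 1.05, 0.70 and 1.15.

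Keratins are the intermediate filaments of epithelia. Of 6 wound keratins, which appear in activated epidermis, 3 rose: KRT16 measured 306, 289 and 309 CPM in Ad-TEADi, against 56.7, 59.2 and 61.8 CPM in Ad-GFP (log2 change 2.33 ± 0.13, adjusted p = 1.3e-09), and KRT6C and KRT6B rose by 1.61 and 1.14. KRT10 of the spinous layer rose, at 16.2, 16.2 and 18.9 CPM in Ad-TEADi, against 10.3, 9.51 and 10.4 CPM in Ad-GFP (log2 change 0.71 ± 0.11, adjusted p = 1.6e-06), and KRT13 rose by 1.44. KRT15, a keratin of basal cells, also rose, with 286, 304 and 322 CPM in Ad-TEADi, against 63.5, 80.1 and 71.4 CPM in Ad-GFP (log2 change 2.07 ± 0.12, adjusted p = 1.3e-09), while the basal keratins KRT14 and KRT5 had log2 changes of 0.57 and 0.31 and were not called (KRT14 lay just under the fold limit and was called when each library was centred on its median and on TPM values, at 0.62 for both, without Ad-GFP replicate 3, at 0.59, and without Ad-TEADi replicate 2, at 0.60). KRT18, a keratin of simple epithelia, fell, at 265, 260.4 and 258 CPM in Ad-TEADi, against 556, 523 and 503 CPM in Ad-GFP (log2 change -1.01 ± 0.05, adjusted p = 4.4e-18).

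Of 23 tested transcription factors that drive late differentiation 10 rose and none fell, with a median log2 change of 0.50, and 4 of the 10 entered the test only through the 48 h Ad-TEADi libraries. MAF, a basic leucine zipper factor of keratinocyte differentiation, measured 25.2, 25.2 and 26.1 CPM in Ad-TEADi, against 3.39, 3.50 and 3.91 CPM in Ad-GFP (log2 change 2.53 ± 0.15, adjusted p = 1.9e-15). GRHL3, a grainyhead factor of barrier formation, measured 28.2, 27.0 and 29.6 CPM in Ad-TEADi, against 5.005, 5.84 and 5.65 CPM in Ad-GFP (log2 change 2.17 ± 0.12, adjusted p = 2.0e-16). OVOL1, a zinc finger factor that acts as cells leave the cycle, measured 9.27, 7.60 and 10.01 CPM in Ad-TEADi, against 1.16, 0.821 and 0.934 CPM in Ad-GFP (log2 change 2.33 ± 0.16, adjusted p = 2.2e-14). ZNF750, GRHL1, CEBPA, HOPX and PRDM1 rose by 1.96, 1.58, 0.81, 0.78 and 0.69. KLF4, a zinc finger factor required for the skin barrier, stood at 47.9, 48.6 and 48.7 CPM in Ad-TEADi, against 33.4, 32.6 and 38.3 CPM in Ad-GFP, without overlap of the groups and with log2 change 0.47 ± 0.06, adjusted p = 4.7e-08, below the fold limit. Among 11 factors of basal identity, 4 rose, SOX4 and TP73 by 1.27 and 1.02 among them, TCF7L1 fell by 0.89, and TP63, the master factor of stratified epithelia, had log2 change 0.08 ± 0.04, adjusted p = 0.11.

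Proteases and inhibitors of the upper epidermis rose as well. Of 14 kallikreins and other epidermal proteases 8 rose and none fell, with a median log2 change of 0.79, and 5 of the 8 entered the test only through the 48 h Ad-TEADi libraries. KLK10 measured 11.3, 11.01 and 11.96 CPM in Ad-TEADi, against 5.005, 4.41 and 5.07 CPM in Ad-GFP (log2 change 1.09 ± 0.12, adjusted p = 2.6e-09), the caspase CASP14, which acts in cornification, rose by 1.65, and the aspartic protease CTSD rose by 0.71. Of 19 protease inhibitors 10 rose, 3 of them tested through those libraries alone, and 1 fell, with a median log2 change of 0.67. SPINK5, an inhibitor of kallikreins that is lost in Netherton syndrome, measured 8.55, 10.8 and 11.5 CPM in Ad-TEADi, against 1.06, 1.34 and 0.712 CPM in Ad-GFP (log2 change 2.47 ± 0.16, adjusted p = 7.4e-15). The serpins SERPINB3, SERPINB1, SERPINB13 and SERPINB5 rose by 1.87, 1.24, 1.13 and 0.90. SERPINB2, an inhibitor of urokinase, was the member that fell, at 257, 271 and 240.0 CPM in Ad-TEADi, against 586, 575 and 589.9 CPM in Ad-GFP (log2 change -1.19 ± 0.06, adjusted p = 3.2e-14).

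Of 23 genes of the epidermal lipid barrier 6 rose and 2 fell, with a median log2 change of 0.30. The lipid transporter ABCA12, which loads lamellar granules, measured 64.6, 68.4 and 73.2 CPM in Ad-TEADi, against 20.02, 22.01 and 22.9 CPM in Ad-GFP (log2 change 1.62 ± 0.11, adjusted p = 2.1e-12). The lipoxygenase ALOX15B measured 147, 138 and 136 CPM in Ad-TEADi, against 31.0, 30.4 and 32.2 CPM in Ad-GFP (log2 change 2.14 ± 0.10, adjusted p = 1.3e-16), and the sterol sulphotransferase SULT2B1 rose by 2.66. The 2 falls were ABHD5, a co-activator of lipases, at -0.62 and the elongase ELOVL7 at -0.63. Both were close to the fold limit and missed it when each library was centred on its median (-0.57 for each), ABHD5 also without Ad-GFP replicate 2 (-0.55) and ELOVL7 without Ad-GFP replicate 1 (-0.56).

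Desmosomes, the junctions that hold suprabasal cells together, were raised broadly. Of 10 tested genes 7 rose and none fell, with a median log2 change of 0.89. The cadherin DSC2 measured 122, 127 and 133 CPM in Ad-TEADi, against 34.0, 36.9 and 35.6 CPM in Ad-GFP (log2 change 1.81 ± 0.06, adjusted p = 2.2e-21) and DSG3 measured 607, 639 and 651 CPM in Ad-TEADi, against 270.4, 284 and 285 CPM in Ad-GFP (log2 change 1.17 ± 0.05, adjusted p = 6.8e-20). DSG1, a cadherin of the upper layers, was near zero in control cells, with 5.15, 5.53 and 6.12 CPM in Ad-TEADi, against 0.0506, 0.173 and 0.222 CPM in Ad-GFP. The plaque genes PKP1, DSP and PERP and the cadherin DSC3 rose by 0.93, 0.76, 0.91 and 0.87. Among 17 tight junction genes CLDN11, a claudin, fell by 1.11, while calls of 3 further members close to the fold limit depended on single libraries and are not described. Of 21 adherens junction genes and cadherins, the nectins PVRL4 and PVRL1 and the giant cadherin FAT2 rose by 2.28, 0.90 and 1.40. CDH2, the neural cadherin, fell by 0.96 and EPCAM fell by 0.996. Among connexins, the channels of gap junctions, GJB2 measured 1198, 1185 and 1198 CPM in Ad-TEADi, against 339, 369 and 340.5 CPM in Ad-GFP (log2 change 1.77 ± 0.06, adjusted p = 9.3e-16) and GJA5 measured 2.01, 2.21 and 2.17 CPM in Ad-TEADi, against 11.3, 11.6 and 12.5 CPM in Ad-GFP (log2 change -2.03 ± 0.15, adjusted p = 7.9e-13), and these moved in opposite directions.

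**Figure D3:**
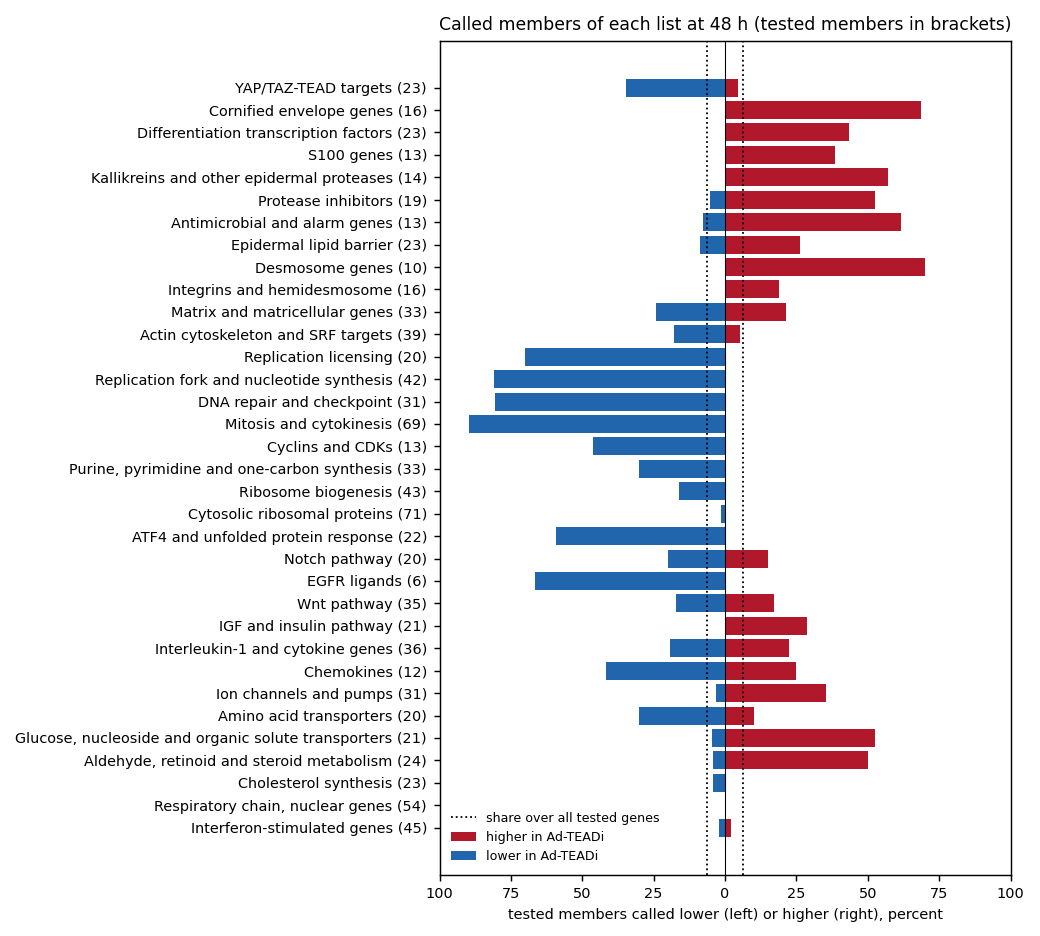
Share of tested members of each list called higher in Ad-TEADi (red, to the right) or lower (blue, to the left) at 48 h, in percent, with the number tested in brackets and dotted lines at the shares over all tested genes (6.31% higher, 6.34% lower). Cell cycle lists lie to the left, with 62 of 69 mitosis genes lower, and epidermal lists to the right, with 11 of 16 cornified envelope genes higher.

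Genes of DNA replication fell with no rise among them. Before S phase, the licensing factors load the MCM helicase onto origins. Of 20 tested licensing genes 14 fell, with a median log2 change of -0.91. CDC6, a loader of the helicase, measured 14.6, 13.7 and 15.02 CPM in Ad-TEADi, against 50.7, 46.2 and 43.4 CPM in Ad-GFP (log2 change -1.63 ± 0.06, adjusted p = 5.3e-21). The helicase subunits MCM2 and MCM5 fell (log2 changes -1.40 and -1.39), and MCM6 measured 15.97, 16.1 and 15.4 CPM in Ad-TEADi, against 40.4, 39.7 and 36.7 CPM in Ad-GFP (log2 change -1.25 ± 0.06, adjusted p = 3.2e-18). The other loader CDT1 fell by 1.12 and its inhibitor GMNN fell by 0.73. Most subunits of the origin recognition complex were not called, ORC2 and ORC5 with -0.31 and -0.26 among them, while ORC1 and ORC6 fell (log2 changes -0.87 and -0.94). At the fork and in nucleotide synthesis 34 of 42 fell, with a median log2 change of -0.82. CDC45, which joins the active helicase, measured 9.53, 7.96 and 7.23 CPM in Ad-TEADi, against 24.4, 23.5 and 22.6 CPM in Ad-GFP (log2 change -1.41 ± 0.10, adjusted p = 9.4e-13). The ribonucleotide reductase subunit RRM2, the flap nuclease FEN1, the sliding clamp PCNA and the maintenance methyltransferase DNMT1 fell (log2 changes -1.21, -1.15, -0.67 and -1.24). DNA repair and checkpoint genes fell in 25 of 31 cases, with a median log2 change of -0.83, among them BRCA1 (-1.03), the helicase BLM (-1.06) and FANCA (-1.30).

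Mitosis and cytokinesis genes fell in 62 of 69 cases, with a median log2 change of -0.85. CDC20, the activator of the anaphase-promoting complex, measured 39.4, 41.3 and 36.0 CPM in Ad-TEADi, against 101, 94.2 and 88.8 CPM in Ad-GFP (log2 change -1.26 ± 0.06, adjusted p = 3.0e-19). PLK1, a kinase of mitotic entry, measured 26.4, 23.3 and 21.7 CPM in Ad-TEADi, against 52.8, 54.2 and 54.7 CPM in Ad-GFP (log2 change -1.15 ± 0.06, adjusted p = 8.4e-17). MKI67, the antigen used to stain dividing cells, measured 77.9, 79.9 and 76.1 CPM in Ad-TEADi, against 182, 180.3 and 161 CPM in Ad-GFP (log2 change -1.15 ± 0.07, adjusted p = 2.6e-12). For all 3 genes the highest Ad-TEADi library lay well below the lowest Ad-GFP library. AURKB and BIRC5 of the chromosomal passenger complex fell (log2 changes -1.21 and -1.003), as did the kinetochore protein NDC80 (-1.15), the kinesin KIF2C (-1.11) and CCNB1 (-0.77). The 68 members of certain copies ran from -1.26 to 0.35, with no rise called, and the kinesin KIFC1 belongs to the genes of uncertain copies and is not described. Of 13 cyclins, CDKs and their partners 6 fell, namely CCNA2, CCND1, CCNE2, CCNF, CKS1B and SKP2 (log2 changes -0.93, -0.63, -0.82, -0.80, -0.998 and -0.88). The fall of CCND1, cyclin D1, missed the fold limit when each library was centred on its median (-0.57).

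E2F factors switch on replication genes and the DREAM complex holds cell cycle genes silent in resting cells. Of 15 tested factors 5 fell and none rose, and 8 were called lower with voom weights on the recovered reads. E2F1 measured 3.40, 3.14 and 2.73 CPM in Ad-TEADi, against 12.9, 10.4 and 9.43 CPM in Ad-GFP (log2 change -1.54 ± 0.12, adjusted p = 7.9e-12), MYBL2 and FOXM1, which act on mitotic genes, fell (log2 changes -0.98 and -1.04), and E2F7 and MYBL1 fell (log2 changes -0.88 and -1.27). E2F3 and E2F4 were not called, with 0.16 and -0.34. E2F2, at -0.37, was not called with 1 added to each value, but was lower with a pseudocount of 0.1 (log2 change -0.94) and with voom weights on the recovered reads (-1.23). Of 9 CDK inhibitors and pocket proteins, CDKN2B, an inhibitor of CDK4 and CDK6, rose, at 32.6, 32.0 and 32.8 CPM in Ad-TEADi, against 10.1, 10.9 and 12.2 CPM in Ad-GFP (log2 change 1.48 ± 0.09, adjusted p = 3.6e-15), and RBL1 fell by 0.85. CDKN1A, the p21 inhibitor, had log2 change -0.11 ± 0.04, adjusted p = 0.0347.

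Promoters of fallen cell cycle genes are shown with the letters of their known class. MCM6 and MCM3 carry E2F-type letters, for which TTTGGCGC, TTTCGCGC, TTTCCCGC and TTTGCCGC were searched on both strands. The mitotic genes CDC20, PLK1 and CCNB2 carry TTTGAA, the letters of the CHR element that DREAM reads, which run TTCAAA on the other strand. The sequences are from RefSeq in GRCh38.p14, end at the base before the start and have those letters in capitals.
MCM6: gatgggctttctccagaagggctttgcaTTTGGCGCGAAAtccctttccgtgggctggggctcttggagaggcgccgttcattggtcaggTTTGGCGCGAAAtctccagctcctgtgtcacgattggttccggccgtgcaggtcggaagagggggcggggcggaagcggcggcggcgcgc
MCM3: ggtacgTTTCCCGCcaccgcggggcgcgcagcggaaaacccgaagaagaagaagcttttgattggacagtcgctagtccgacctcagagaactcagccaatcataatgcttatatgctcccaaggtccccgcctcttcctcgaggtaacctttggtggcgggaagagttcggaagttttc
CDC20: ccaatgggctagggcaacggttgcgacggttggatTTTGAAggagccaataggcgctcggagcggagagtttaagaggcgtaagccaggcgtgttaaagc
PLK1: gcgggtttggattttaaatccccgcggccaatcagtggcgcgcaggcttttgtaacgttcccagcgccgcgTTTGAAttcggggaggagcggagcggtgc
CCNB2: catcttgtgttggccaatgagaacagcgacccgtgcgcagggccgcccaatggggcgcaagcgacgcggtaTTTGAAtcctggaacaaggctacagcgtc
MCM6 lies at chr2:135876444-135876623 and MCM3 at chr6:52284743-52284922, both on the minus strand. CDC20 lies at chr1:43358881-43358980, PLK1 at chr16:23678789-23678888 and CCNB2 at chr15:59105046-59105145, on the plus strand. In MCM6 the letters occur 4 times, as overlapping matches on opposite strands that begin 152 and 148 and again 90 and 86 bases before the start. The CHR letters begin 65 bases before the start in CDC20 and 29 bases before it in PLK1 and CCNB2. The E2F-type letters were in 10 of 23 windows of the licensing genes (43.5%, 18 of 20 genes matched) and in 17 of 52 windows of the fork genes (32.7%, 38 of 42 matched), beside 1164 of 35116 RefSeq windows (3.31%). The CHR letters were in 45 of 73 windows of the mitosis genes (61.6%, 58 of 69 matched), beside 5324 of 35116 (15.2%), in 1 of 23 licensing windows (4.35%) and in 4 of 52 fork windows (7.69%). Among the 14343 windows matched to tested genes, 716 held the E2F-type letters (4.99%) and 1504 the CHR letters (10.5%).

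**Figure D4:**
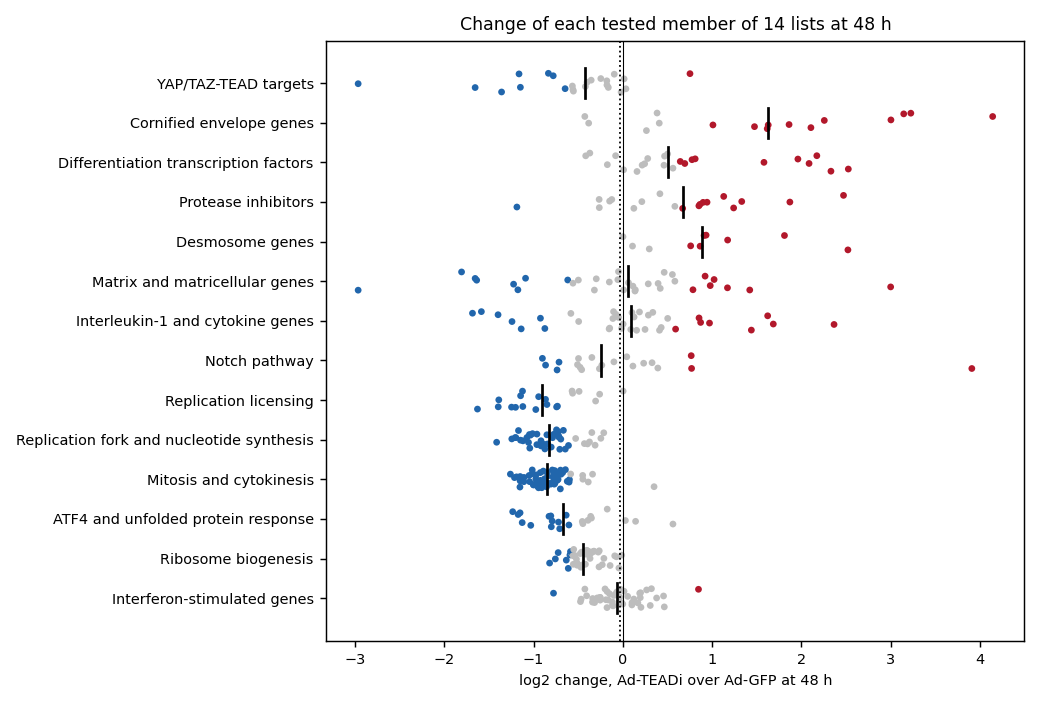
Log2 change of Ad-TEADi over Ad-GFP at 48 h for each tested member of certain copies in 14 lists (red called higher, blue called lower, grey not called), with a black bar at the list's median and a dotted line at the median of all tested genes (-0.03). Mitosis genes lie close together around -0.85, while the cytokine and matrix lists spread to both sides.

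Matrix genes fell and rose in similar numbers, 8 and 7 of 33, around a median log2 change of 0.06. The falls held abundant adhesive proteins: fibronectin (FN1) measured 6289.8, 6569 and 6002 CPM in Ad-TEADi, against 14532, 15056 and 14466 CPM in Ad-GFP (log2 change -1.22 ± 0.05, adjusted p = 2.6e-13) and THBS1 measured 1106, 1146 and 991 CPM in Ad-TEADi, against 3865, 3723 and 3754 CPM in Ad-GFP (log2 change -1.81 ± 0.10, adjusted p = 5.0e-09). The collagen COL8A1 and the fibrillin FBN2 fell (log2 changes -1.64 and -1.09). The rises held TGFBI at 704, 706 and 719 CPM in Ad-TEADi, against 265, 267 and 261 CPM in Ad-GFP (log2 change 1.42 ± 0.04, adjusted p = 1.8e-24), the fibrillar collagens COL5A1, COL5A2 and COL1A1 by 1.17, 0.98 and 0.92, and the small proteoglycan decorin (DCN), at 7.83, 6.90 and 10.3 CPM in Ad-TEADi, against 0.152, 0.130 and 0.178 CPM in Ad-GFP (log2 change 3.002 ± 0.15, adjusted p = 5.6e-18). DCN entered the test only through the 48 h Ad-TEADi libraries. COL1A1 and DCN are also markers of fibroblasts. Of 20 laminin and basement membrane genes 5 rose and 1 fell. COL7A1, the collagen of anchoring fibrils, measured 2559, 2409 and 2449 CPM in Ad-TEADi, against 1261, 1209 and 1235 CPM in Ad-GFP (log2 change 1.0002 ± 0.05, adjusted p = 1.2e-13), and the collagen IV chain COL4A5 rose by 0.88. Of 16 integrin and hemidesmosome genes 3 rose, ITGB6 and ITGA5 by 1.13 and 0.80 among them, or 6 when each library was centred on its median, and ITGB4 and ITGA6 were not called (-0.22 and 0.31).

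Matrix metalloproteases, which degrade collagen and other matrix, held 3 of the largest rises. MMP1, the interstitial collagenase, measured 164, 169 and 175 CPM in Ad-TEADi, against 7.18, 10.03 and 7.74 CPM in Ad-GFP (log2 change 4.20 ± 0.17, adjusted p = 2.4e-11). MMP9, a gelatinase, measured 467, 414 and 409 CPM in Ad-TEADi, against 38.6, 38.05 and 33.4 CPM in Ad-GFP (log2 change 3.52 ± 0.11, adjusted p = 2.6e-12). MMP10, a stromelysin, measured 92.0, 99.1 and 89.2 CPM in Ad-TEADi, against 6.72, 8.65 and 6.54 CPM in Ad-GFP (log2 change 3.52 ± 0.14, adjusted p = 7.7e-14). These levels lay at least several-fold above every Ad-GFP library. ADAMTS1, a secreted protease of proteoglycans, went the other way, at 39.2, 42.1 and 36.4 CPM in Ad-TEADi, against 204, 198 and 197 CPM in Ad-GFP (log2 change -2.32 ± 0.13, adjusted p = 3.5e-09), as did ADAMTS6 (-1.38). In all 4 of 23 members rose and 2 fell, beside 6.31% and 6.34% over all tested genes, with a median of 0.02. Among plasminogen activation genes, urokinase (PLAU) rose by 0.77 and the tissue activator PLAT fell, at 59.3, 58.3 and 56.5 CPM in Ad-TEADi, against 199, 184 and 179 CPM in Ad-GFP (log2 change -1.67 ± 0.06, adjusted p = 1.5e-19).

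Of 39 genes of the actin cytoskeleton 7 fell and 2 rose, beside 6.34% and 6.31% over all tested genes. Their median log2 change was -0.04 (0.01 when each library was centred and on TPM values). TAGLN, an actin-binding protein that follows contractile tension, measured 16.1, 16.8 and 12.96 CPM in Ad-TEADi, against 51.4, 61.6 and 59.2 CPM in Ad-GFP (log2 change -1.85 ± 0.11, adjusted p = 3.5e-10), and the kinase scaffold AKAP12 and the formin DIAPH3 fell (log2 changes -1.81 and -1.21). FLNC, a filamin outside the lists, fell with 4.64, 5.04 and 5.45 CPM in Ad-TEADi, against 20.2, 20.8 and 18.7 CPM in Ad-GFP (log2 change -1.79 ± 0.10, adjusted p = 2.3e-16). Most cytoskeletal genes were within the fold limit, ACTB with -0.44 among them.

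Several ligands of the epidermal growth factor receptor fell. Of 6 tested ligands 4 fell and none rose: AREG measured 618, 657 and 605 CPM in Ad-TEADi, against 1187, 1245 and 1259 CPM in Ad-GFP (log2 change -0.97 ± 0.04, adjusted p = 9.0e-19), and EREG, HBEGF and NRG1 fell (log2 changes -0.80, -0.81 and -0.81). The receptor EGFR, at -0.52, was lower at the adjusted p but within the fold limit, while its relative ERBB3 rose by 0.88. Of 20 tested ERK feedback genes 1 rose and 2 fell, with a median log2 change of -0.08. The lowest was the immediate early factor EGR1, which fell by 0.75. Shares over all tested genes were 6.31% risen and 6.34% fallen. FGFR3, a receptor of fibroblast growth factors, measured 246, 210.3 and 213 CPM in Ad-TEADi, against 52.8, 53.1 and 59.2 CPM in Ad-GFP (log2 change 1.997 ± 0.13, adjusted p = 3.5e-09), and the ligand FGF2 fell by 1.13.

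In the Notch pathway, which directs spinous commitment, 3 of 20 rose and 4 fell. NOTCH3 measured 25.3, 18.7 and 21.5 CPM in Ad-TEADi, against 0.354, 0.562 and 0.623 CPM in Ad-GFP (log2 change 3.91 ± 0.16, adjusted p = 6.4e-20), and the target HES1 rose by 0.77. NOTCH1 and NOTCH2 were not called, with 0.39 and 0.23. The ligand DLL1, the glycosyltransferase LFNG and the DNA-binding partner RBPJ were among the falls (log2 changes -0.87, -0.90 and -0.74). Wnt genes were split 6 and 6 of 35, with the ligands WNT4 and WNT10A and the secreted inhibitor SFRP1 higher by 1.51, 1.36 and 0.92, and WNT5B, the nuclear factor LEF1 and the inhibitor DKK1 lower (log2 changes -0.95, -0.84 and -0.68). Of the 6 risen Wnt genes, 2 entered the test only through the 48 h Ad-TEADi libraries. Of 30 genes of the TGF-beta and BMP pathway 4 rose and 4 fell, around a median log2 change of 0.03. The shares over all tested genes were 6.31% and 6.34%. In the insulin and IGF list 6 of 21 rose and none fell: PIK3IP1, an inhibitor of PI3 kinase, measured 37.3, 36.2 and 33.5 CPM in Ad-TEADi, against 8.70, 7.70 and 8.41 CPM in Ad-GFP (log2 change 1.99 ± 0.10, adjusted p = 4.9e-18), and FOXO1 and the stress protein SESN3 rose by 0.72 and 1.26. The MYC antagonists MXD4 and MXI1 rose by 0.97 and 0.62, and MYC measured 239.7, 219 and 207 CPM in Ad-TEADi, against 307, 311 and 316 CPM in Ad-GFP (log2 change -0.49 ± 0.05, adjusted p = 1.3e-10), below the fold limit.

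Cytokine genes were called in both directions, 8 higher and 7 lower of 36, around a median log2 change of 0.10. The agonists of the interleukin-1 receptor fell: IL1B measured 49.5, 42.5 and 41.0 CPM in Ad-TEADi, against 156, 142 and 135 CPM in Ad-GFP (log2 change -1.69 ± 0.08, adjusted p = 8.4e-14) and IL1A measured 222, 233 and 222 CPM in Ad-TEADi, against 543, 538 and 523 CPM in Ad-GFP (log2 change -1.24 ± 0.05, adjusted p = 4.0e-19). Its antagonist IL1RN rose, at 55.8, 49.6 and 60.3 CPM in Ad-TEADi, against 8.95, 10.6 and 10.1 CPM in Ad-GFP (log2 change 2.37 ± 0.11, adjusted p = 1.1e-18), and so did IL36RN, the antagonist of the interleukin-36 receptor, at 7.42, 6.19 and 8.06 CPM in Ad-TEADi, against 0.202, 0.259 and 0.178 CPM in Ad-GFP (log2 change 2.75 ± 0.14, adjusted p = 2.0e-17). The agonist IL36G also rose, by 1.69, with the alarmin IL33 (1.62) and the death ligand TNFSF10 (1.44). NLRP3, an inflammasome sensor, and the colony-stimulating factor CSF3 fell (log2 changes -1.59 and -0.92). Of 12 chemokines 5 fell and 3 rose, and 2 of the 3 entered the test only through the 48 h Ad-TEADi libraries. CXCL1, which draws neutrophils, measured 11.95, 12.8 and 12.2 CPM in Ad-TEADi, against 36.5, 32.9 and 28.1 CPM in Ad-GFP (log2 change -1.32 ± 0.09, adjusted p = 2.0e-10), and CXCL2, CXCL3, CXCL16 and CCL20 fell (log2 changes -0.98, -1.11, -0.95 and -0.73). CCL27, a chemokine of skin-homing T cells, and CXCL14 rose, CCL27 with 3.49, 2.51 and 3.23 CPM in Ad-TEADi, against 0.237, 0.107 and 0.208 CPM in Ad-GFP and CXCL14 by 1.21. Among 13 antimicrobial and alarm genes 8 rose, 4 of which entered the test only through the 48 h Ad-TEADi libraries, the oxidases DUOX1 and DUOX2 by 0.98 and 1.01 and the protease inhibitor SLPI by 0.94. LCN2, an iron carrier, fell by 1.09.

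In the prostaglandin and leukotriene list 6 of 16 rose, 2 of them tested through the 48 h Ad-TEADi libraries alone, and 3 fell. PTGS2, the inducible cyclooxygenase, measured 35.4, 37.3 and 32.4 CPM in Ad-TEADi, against 106, 108 and 109 CPM in Ad-GFP (log2 change -1.60 ± 0.06, adjusted p = 1.9e-20), ALOX5AP, the activator of 5-lipoxygenase, measured 1.49, 2.12 and 1.001 CPM in Ad-TEADi, against 8.64, 8.47 and 7.96 CPM in Ad-GFP (log2 change -1.91 ± 0.14, adjusted p = 8.5e-14), and the phospholipase PLA2G4E rose by 2.21. The vasoconstrictor EDN1, the pentraxin PTX3 and the receptor NRP1 fell (log2 changes -1.85, -1.94 and -1.16). CD274, which encodes the immune checkpoint ligand PD-L1, measured 7.88, 8.09 and 9.18 CPM in Ad-TEADi, against 30.0, 31.1 and 28.0 CPM in Ad-GFP (log2 change -1.71 ± 0.08, adjusted p = 1.1e-17). Interferon-stimulated genes stayed largely uncalled, with 1 rise (IFI27 0.85) and 1 fall (IFITM2 -0.78) among 45 and a median log2 change of -0.07.

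Many genes of endoplasmic reticulum stress and amino acid supply fell. In the ATF4 and unfolded protein list 13 of 22 fell and none rose, with a median log2 change of -0.67. HSPA5, the chaperone BiP, measured 2264, 2400.2 and 2238 CPM in Ad-TEADi, against 5646, 5041 and 4907 CPM in Ad-GFP (log2 change -1.17 ± 0.06, adjusted p = 4.0e-12). HERPUD1, which acts in the degradation of misfolded proteins, measured 133, 136 and 123 CPM in Ad-TEADi, against 331, 294 and 300.5 CPM in Ad-GFP (log2 change -1.23 ± 0.06, adjusted p = 4.5e-17), and the stress factor DDIT3 and the chaperone HSP90B1 fell (log2 changes -1.13 and -0.81). The enzyme ASNS, which makes asparagine, fell by 0.79, and ATF4 itself had -0.45, below the fold limit. Of 20 amino acid transporters 6 fell and 2 rose. SLC7A5, the large neutral transporter, measured 1314, 1195 and 1129.7 CPM in Ad-TEADi, against 2568, 2406 and 2427 CPM in Ad-GFP (log2 change -1.03 ± 0.05, adjusted p = 4.6e-18), its partner SLC3A2 fell by 0.81, and the cystine transporter SLC7A11 fell by 0.81. Purine, pyrimidine and one-carbon genes fell in 10 of 33 cases, or 6 when each library was centred on its median, with SRM, PFAS and MTHFD2 at -1.18, -1.05 and -0.83. Among cytosolic chaperones, the small heat shock proteins HSPB1 and CRYAB rose, HSPB1 with 502, 398 and 411 CPM in Ad-TEADi, against 164, 155 and 173 CPM in Ad-GFP (log2 change 1.40 ± 0.12, adjusted p = 3.5e-07) and CRYAB by 2.31.

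Transport and detoxification genes were called higher more often than lower. Of 31 ion channels and pumps 11 rose and 1 fell, with a median log2 change of 0.29. AQP3, the water and glycerol channel of keratinocytes, measured 307, 239.6 and 302 CPM in Ad-TEADi, against 47.7, 49.7 and 56.8 CPM in Ad-GFP (log2 change 2.43 ± 0.14, adjusted p = 7.0e-09), and the carbonic anhydrase CA12 measured 468, 474 and 485 CPM in Ad-TEADi, against 85.1, 91.1 and 87.2 CPM in Ad-GFP (log2 change 2.42 ± 0.11, adjusted p = 2.1e-10). The calcium channel TRPV3 and the chloride regulator CLCA2 rose by 2.05 and 1.36, and the chloride channel ANO1 fell by 1.64. Of 21 glucose, nucleoside and organic solute carriers 11 rose and 1 fell, with a median log2 change of 0.73, among them the glucose carriers SLC2A1 and SLC2A3 at 0.93 and 1.28 and the cholesterol exporter ABCA1 at 1.31. Of 24 genes of aldehyde, retinoid and steroid metabolism 12 rose, 2 of them tested through the 48 h Ad-TEADi libraries alone, and 1 fell, with a median log2 change of 0.59. CRABP2, which carries retinoic acid to its receptor, measured 24.6, 26.3 and 25.6 CPM in Ad-TEADi, against 2.48, 2.98 and 2.001 CPM in Ad-GFP (log2 change 2.93 ± 0.15, adjusted p = 1.3e-17), ALDH3B2 rose by 2.48 and ALDH1A3, which makes retinoic acid, fell by 0.79. The aldo-keto reductase AKR1C2 rose by 2.25, with close relatives whose reads can be shared, and thioredoxin reductase (TXNRD1) fell by 1.27.

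Outside the lists, GPNMB, a glycoprotein of lysosomes and melanosomes, measured 21.9, 19.4 and 22.6 CPM in Ad-TEADi, against 1.36, 1.60 and 1.47 CPM in Ad-GFP (log2 change 3.17 ± 0.12, adjusted p = 2.6e-20) and DPP4, a membrane peptidase, measured 14.6, 15.6 and 16.1 CPM in Ad-TEADi, against 0.607, 1.51 and 0.845 CPM in Ad-GFP (log2 change 3.07 ± 0.14, adjusted p = 2.1e-18). The phosphatase ALPL measured 1.03, 0.619 and 0.890 CPM in Ad-TEADi, against 8.39, 6.74 and 6.14 CPM in Ad-GFP (log2 change -2.13 ± 0.14, adjusted p = 4.1e-15) and the adhesion protein AMIGO2 measured 28.7, 28.3 and 25.8 CPM in Ad-TEADi, against 90.7, 92.5 and 92.1 CPM in Ad-GFP (log2 change -1.70 ± 0.08, adjusted p = 8.2e-14). TNFAIP1, RRAS2, HMGB3 and SLC37A4 also met the rule for the largest rises, but they are genes of uncertain copies. The reads recovered from their TMM values were 0 in every Ad-GFP library of that time, so no fold is given for them. This does not show that the genes were silent in control cells, as RRAS2 was lower in Ad-TEADi on TPM values (log2 change -0.97).

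Several housekeeping lists held few calls. None of 54 nuclear genes of the respiratory chain, 13 transcripts of the mitochondrial genome, 34 proteasome subunits or 19 aminoacyl-tRNA synthetases was called by limma, although 13, 2, 19 and 17 of them passed the adjusted p alone and 18, 4, 22 and 17 had an unadjusted p under 0.05. With voom weights on the recovered reads none of these 4 lists held a call either. Of 71 cytosolic ribosomal protein genes RPL34 fell by 0.79, and the median was -0.12. Of 43 genes of ribosome biogenesis 7 fell, none rose and 39 were lower at an adjusted p under 0.05, with a median log2 change of -0.45, and POLR1B and RRP9 fell (log2 changes -0.76 and -0.82). Most of these genes lay near the fold limit: 11 were called lower without Ad-TEADi replicate 2, 5 without Ad-TEADi replicate 3 and 3 when each library was centred on its median.

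The response at 48 h differed from that at 24 h for 797 genes, 6.11% of those tested, by the interaction of virus and time, which shares no library between the times. Of the 823 risen genes 366 were further up at 48 h than at 24 h, of the 827 fallen genes 362 were further down, and no called gene differed in the opposite direction. The difference contains the same 48 h change by which these genes were called. That choice favours a difference in the same direction, so the lack of opposite ones is no separate result. The split of the 797 was 393 more positive and 404 more negative, and it was 465 and 308 when each library was centred on its median and 91 and 46 on TPM values. Differences were called for 12 of 16 cornified envelope genes, 51 of 69 mitosis genes, 10 of 20 licensing genes, 9 of 22 ATF4 and unfolded protein genes and 6 of 23 YAP/TAZ-TEAD targets. The median log2 change of the mitosis genes was -0.85 at 48 h and -0.16 at 24 h, that of the licensing genes -0.91 and -0.28, and that of the cornified envelope genes 1.62 and 0.24. CTGF had a log2 change of -2.97 at 48 h and -1.81 at 24 h, THBS1 of -1.81 and -0.65, S100A8 of 4.62 and 1.503, and PLK1 of -1.15 and -0.25. For other genes no difference between the times was called: FGFR3 had 1.997 at 48 h and 1.88 at 24 h (adjusted p = 0.713), and IL33 had 1.62 and 1.06 (adjusted p = 0.0591).

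**Figure D5:**
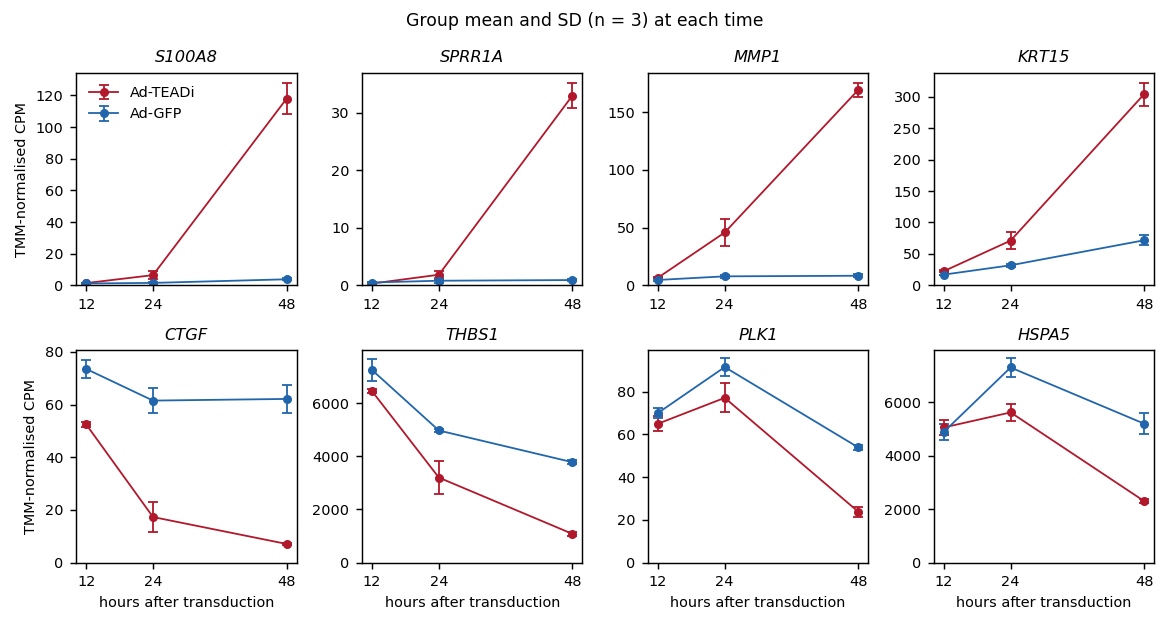
Group mean and SD (n = 3) of the level in CPM at 12, 24 and 48 h after transduction, for 8 genes, with Ad-TEADi in red and Ad-GFP in blue. The groups lie apart at 48 h in every panel, and S100A8 and SPRR1A separate chiefly after 24 h. The mean of CTGF is drawn lower in Ad-TEADi at 12 h, but no difference between the groups at 12 h was tested.

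The cells carried the markers of their label. All 10 keratinocyte markers were tested, and their summed level lay between 55541 and 58371 CPM in Ad-TEADi and between 43334 and 44048 CPM in Ad-GFP. Of 10 fibroblast markers 7 were listed, with a summed level of 76.9 to 79.5 CPM in Ad-TEADi and 44.1 to 48.2 CPM in Ad-GFP. Of these 7 markers 5 were tested, and DCN and COL1A1 rose while THY1 fell. Of 8 melanocyte markers 2 were listed, summing to 0.89 to 1.49 CPM in Ad-TEADi and 1.56 to 1.97 CPM in Ad-GFP. Only 1 of them was tested. It fell (log2 change -0.59), close to the fold limit, and this call depended on single libraries. Of 9 immune and endothelial markers 3 were listed, summing to 2.22 to 2.84 CPM in Ad-TEADi and 0.556 to 0.735 CPM in Ad-GFP. Only CD14 was tested, and it rose, at 1.18, 1.11 and 1.33 CPM in Ad-TEADi, against 0.253, 0.173 and 0.133 CPM in Ad-GFP. CD14 and 1 of the 2 risen fibroblast markers entered the test only through the 48 h Ad-TEADi libraries. PTPRC, PECAM1, TYR and LUM were not analysed here, and the part of fibroblasts, melanocytes, immune or endothelial cells in the rises of DCN, COL1A1 and CD14 was not tested.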

How the data were processed

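RNA was sequenced from 18 libraries of N/TERT2G keratinocytes, of which the 6 of 48 h are described. Reads were, by the tools and versions in the submitters' processing notes, trimmed with Trimmomatic 0.36 and aligned to hg19 with STAR 2.5.1, and Partek 8.0.19.0819 assigned them to genes by expectation maximisation and kept genes with at least 8 reads. The study's own text gives other versions of STAR and Partek, and which were used could not be settled. The values used here are the TMM-normalised CPM that the authors deposited, in which 1 read had been added before scaling. The deposited TPM, which sum to 98913 to 99722 per library, served as an alternative. The authors' own columns of p-value and q-value, ratio, signed fold change and group mean (a signal on the TMM scale) were deposited too and were not used.

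A gene was tested on chromosomes 1 to 22, X and the mitochondrial genome if its value was at least 1 in at least 3 of the 18 libraries (13050 of 15896 listed). Values were taken as log2(CPM + 1) and fitted with limma 3.58.1 in R 4.3.3 (6 group means, moderated variance with trend and robust estimation, Benjamini-Hochberg adjustment over all tested genes). A call needed an adjusted p under 0.05 and a fold of at least 1.5. The difference between 48 h and 24 h was the interaction of virus and time. Simulated data with known 2-fold changes were checked first. Reads recovered by dividing each value by the lowest of its library, less the added read, were whole within 0.01 for 75 to 78% of low values, so no count model was the main test. Genes placed on assembly patches or alternative haplotypes were taken as uncertain copies, as were those with spread over 16-fold between replicates at 100 reads or more. Genes with TMM and TPM out of step (coefficient of variation of their ratio over 0.2) were added. Genes of uncertain copies (73 of those tested) are not described. Some list members were untested for their placement and not for a low level, CLDN4, CDSN, FOXN1, MMP28 and TGFA among them. No 2 libraries of a group agreed within sampling noise.

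Genes were named as the 15 largest called rises and 15 largest called falls without overlap of the groups and with a mean of at least 5 in the higher group, as members of gene lists, or for a printed promoter. The members and lists were chosen with earlier results of these data known.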

Additional observations from a re-analysis of the deposited data

Results flagged for a closer look

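The response to TEADi differed between 48 h and 24 h, by the interaction of virus and time in limma, for 797 genes. The difference of the log2 changes (48 h minus 24 h) was 3.50 for SPRR1A, 3.12 for S100A8, 2.96 for NOTCH3 and 2.16 for MMP9. SPRR1A had a log2 change of 4.14 at 48 h and 0.65 at 24 h, NOTCH3 of 3.91 and 0.95, and MMP9 of 3.52 and 1.35. For MMP9 the Ad-GFP level also moved with time: mean levels were 202 CPM in Ad-TEADi and 202 CPM in Ad-GFP at 12 h, 167 CPM in Ad-TEADi and 64.5 CPM in Ad-GFP at 24 h, and 429.9 CPM in Ad-TEADi and 36.7 CPM in Ad-GFP at 48 h. Among falls, the difference was -1.15 for THBS1, -1.15 for CTGF, -0.996 for CDC6, -0.90 for PLK1 and -0.80 for HSPA5. CDC6 had a log2 change of -1.63 at 48 h and -0.63 at 24 h, and HSPA5 of -1.17 and -0.38. CDC6 averaged 107 CPM in Ad-TEADi and 113 CPM in Ad-GFP at 12 h, 69.2 CPM in Ad-TEADi and 108 CPM in Ad-GFP at 24 h, and 14.4 CPM in Ad-TEADi and 46.8 CPM in Ad-GFP at 48 h, so the level in both groups was lower at 48 h than at 24 h. The adjusted p of these 9 differences ran from 9.0e-13 (SPRR1A) to 0.00177 (CTGF). The 3 Ad-TEADi values did not overlap the 3 Ad-GFP values at 48 h for any of the 9 genes, nor for 59.0% of all tested genes. For S100A8, SPRR1A, NOTCH3, MMP9, CTGF and THBS1 the lack of overlap was part of the rule that named them. The reason for these differences was not tested.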

How the results depend on the processing

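The count of 1650 genes called at 48 h (823 higher, 827 lower) was 1633 to 1708 with no filter on low values, a filter on the 6 libraries alone, all listed contigs, each library centred on its median, plain empirical Bayes variance or a fit of the compared libraries only, and 2076 with a pseudocount of 0.1. With a pseudocount of 5 it was 931 (458 higher, 473 lower), with a mean of at least 10 CPM 975 (379 higher), on TPM values 377 (220 higher, 157 lower), and with 0.01 and 2-fold as limits 492 (303 higher, 189 lower). The count of 797 genes whose response differed between 48 h and 24 h was 336 (164 more positive, 172 more negative), 392 (111 more positive), 137 (91 and 46) and 159 (132 and 27) under these 4 settings. The TPM sum to 98913 to 99722 per library, so that a pseudocount of 1 weighs more there, and RRAS2, a gene of uncertain copies, reversed to -0.97 on them. The counts without uncertain copies, 1645 and 797, and with voom weights on recovered reads, 2111 and 805, were chosen after seeing the data.

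Leaving out 1 library gave 1630 to 1724 calls at 48 h (816 to 867 higher, 808 to 867 lower) and 647 to 860 differences between the times (337 to 420 more positive, 310 to 440 more negative), the lowest without Ad-TEADi 24 h replicate 1. With the replicate number as a block, 1657 and 812 genes were called. The deviations of same-numbered libraries at 48 h had correlations of 0.088, 0.109 and -0.058, and those of other pairs ran from -0.177 to 0.117. With 3 libraries in a group, these values cannot tell whether the numbers pair the samples.

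Of 275 genes followed singly, 33 were no longer called with a pseudocount of 5, 113 on TPM values and 3 with centring (ABHD5, CCND1 and ELOVL7). CEBPA lost its call with a pseudocount of 0.1 and with voom weights, and E2F2 gained one with both. With a pseudocount of 5, which weighs on low genes, 3 of 14 epidermal proteases, 4 of 13 antimicrobial genes, 4 of 24 aldehyde, retinoid and steroid genes and 16 of 31 repair genes (the last lower) were called. On TPM values 11 of 69 mitosis genes, 5 of 42 fork genes, 1 of 31 repair genes and 6 of 20 licensing genes were called lower, and 9 of 16 cornified envelope genes higher.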

Other observations

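Guidance genes, which steer the contacts and migration of cells, were called at 48 h in both directions. Of 13 ephrins and Eph receptors 4 rose and 1 fell. The receptor EPHB3 measured 15.4, 13.5 and 13.6 CPM in Ad-TEADi, against 3.64, 4.97 and 4.67 CPM in Ad-GFP (log2 change 1.49 ± 0.13, adjusted p = 1.3e-11), and the ligands EFNA1, EFNA3 and EFNA4 rose by 0.87, 0.82 and 0.81 on the log2 scale. EPHA2, a receptor of keratinocytes, was the member that fell, at 150.4, 129.7 and 126 CPM in Ad-TEADi, against 245, 234 and 232 CPM in Ad-GFP (log2 change -0.81 ± 0.05, adjusted p = 3.4e-14). Of 27 semaphorins, plexins, slits and netrins 6 rose and 3 fell. The rises included SEMA6D by 1.45, SEMA3C by 1.13 and SEMA4B by 1.01, and the falls were SEMA3D (-1.52) and the secreted slit ligands SLIT3 (-1.17) and SLIT2 (-0.88).

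Of 28 genes of the NRF2 and aldo-keto reductase list, which act against oxidants and reactive carbonyls, 7 rose and 2 fell. Among the 7 risen genes, 2 entered the test only through the 48 h Ad-TEADi libraries. HMOX1, the inducible haem oxygenase, measured 12.7, 11.98 and 12.7 CPM in Ad-TEADi, against 5.46, 5.58 and 5.25 CPM in Ad-GFP (log2 change 1.06 ± 0.11, adjusted p = 2.1e-10), and the peroxidase GPX2 and the ferritin chain FTH1 rose by 0.94 and 0.74. AKR1B10, an aldo-keto reductase with close relatives whose reads can be shared, rose by 1.70. Of 34 lysosome and autophagy genes 4 rose and none fell, beside 6.31% risen and 6.34% fallen over all tested genes. The transcription factor TFEB at 0.95 and the autophagy kinase ULK1 at 0.75 were among the rises. Of 26 glycolysis and hypoxia genes 5 rose, among them the carbonic anhydrase CA9 and the bifunctional enzyme PFKFB4, by 1.42 and 1.06. In the BCL2 and apoptosis list BMF, a BH3-only protein released on loss of attachment, measured 4.58, 4.29 and 5.95 CPM in Ad-TEADi, against 0.708, 0.346 and 0.267 CPM in Ad-GFP (log2 change 2.05 ± 0.15, adjusted p = 2.7e-13). RAB27B, a GTPase of secretory granules, measured 31.9, 32.7 and 35.6 CPM in Ad-TEADi, against 7.53, 10.2 and 10.1 CPM in Ad-GFP (log2 change 1.75 ± 0.11, adjusted p = 1.1e-15).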
